A study of Mus musculus with 10 samples.

Results

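The genes described here are 36 genes of the unfolded protein response and the integrated stress response, out of 34608 gene names on the array. They were taken from a list of gene names, with every non-control probe of each name, by a rule that uses no measured value, although the list was drawn up with earlier results of these data known. The list has 18 genes of the endoplasmic reticulum (ER), which are 14 chaperones or folding enzymes and 4 genes of ER-associated degradation. A further 4 genes encode sensors of the unfolded protein response or its transcription factor Xbp1, and 14 encode regulators and enzymes controlled through the transcription factor Atf4. Of the 36 genes, 35 were bright enough to be tested. The exception was Hyou1, an ER chaperone of the Hsp70 family.

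When unfolded protein builds up in the ER, the membrane proteins IRE1 (gene Ern1), PERK (gene Eif2ak3) and ATF6 signal to the nucleus. IRE1 splices the Xbp1 messenger RNA, ATF6 is cut to release a transcription factor, and both raise the genes of ER chaperones and of ER-associated degradation. PERK is 1 of several kinases that phosphorylate the translation factor eIF2α, which slows translation in general but favours that of Atf4, whose targets include stress regulators and enzymes of amino acid synthesis. In skeletal muscle these pathways are known for their activity during myoblast differentiation.

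Messenger RNA was profiled in C2C12, a line of mouse myoblasts that can fuse into myotubes. The cells received a mimic of miR-142-3p or, as the control, a scrambled sequence, with a lipid reagent. Every one of the 4 scramble titles has a remark on re-analysis, which the mimic titles lack and the labels do not explain. Each RNA was used at 150 nM, about 60% of the cells were said to be transfected, and RNA was collected at 72 hours. The labels name 6 mimic and 4 scramble samples, but the file headers place their 10 scans on 1 slide with 5 array positions, and each position was scanned on 2 days. The 2 scans of a position were averaged, which gave n = 3 mimic arrays and n = 2 scramble arrays. Nothing in the headers ties an array to a culture, so p-values measure the spread between arrays, which may be technical. Between 25.4% and 34.6% of a scan's non-control spots were well above background, and the number of arrays limits the precision of every difference.

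The mature mimic sequence is shown because its bases 2 to 8, in capitals, are the seed through which a microRNA pairs with its targets. It is RefSeq's mature mouse miRNA in assembly GRCm38.p6, at chr11:87756903-87756925 on the plus strand, and the labels do not print the sequence of the mimic itself.
mmu-miR-142a-3p: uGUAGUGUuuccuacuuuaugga

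Markers of other cell states moved with the groups. The summed linear signal of 4 markers of differentiating muscle (Myog, Myh3, Actc1 and Tnnc1), in units of each array's 75th percentile, was 7.55 to 10.2 on the mimic arrays and 386 to 397 on the scramble arrays. The sum of 6 myoblast markers was 96.7 to 126 with the mimic and 171 to 210 with the scramble. Within that list Des, Myod1 and Cdh15 fell, while Vim differed by 0.20 on the log2 scale and did not pass the test (limma, adjusted p = 0.604). These 4 were well above background on all scans, and Pax7 was so on none. Myf5 went the other way, with every mimic array above both scramble arrays. It was well above background on 3 mimic scans and 0 scramble scans, too few to be tested. The sum of 8 leukocyte markers was 50.3 to 55.4 with the mimic and 18.8 on both scramble arrays. That rise lay mainly in Cd68, with a log2 difference of 4.83, and to a smaller part in Cd14 (1.54), whereas Itgam (0.15) and Csf1r (0.17) did not pass the test and the defining markers Ptprc, Tyrobp, Lyz2 and Laptm5 were never well above background. The part of these markers in the results below was not tested. In whole-culture RNA, a lower signal from fewer cells of a type cannot be told apart from less RNA per cell.

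Of the 35 tested genes, 3 rose with the mimic (Sdf2l1, Eif2ak3 and Ddit4) and 1 fell (Atf6), at an adjusted p below 0.05 in a limma fit with Benjamini-Hochberg adjustment over all 13677 genes tested. Over all genes tested, 9.74% were called, 5.86% as higher and 3.88% as lower with the mimic, so the share of 11.4% among the stress genes is near the background. The fitted difference was above 0 for 20 genes and below 0 for 15. Its median was 0.09 on the log2 scale, and the median over all genes was 0.09 too. An unadjusted p below 0.05 was reached by 11 of the 35 genes, against 25.3% of all genes. Differences in the following text are log2 signal with the mimic minus log2 signal with the scramble, with the SE of the fit.

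**Figure D1:**
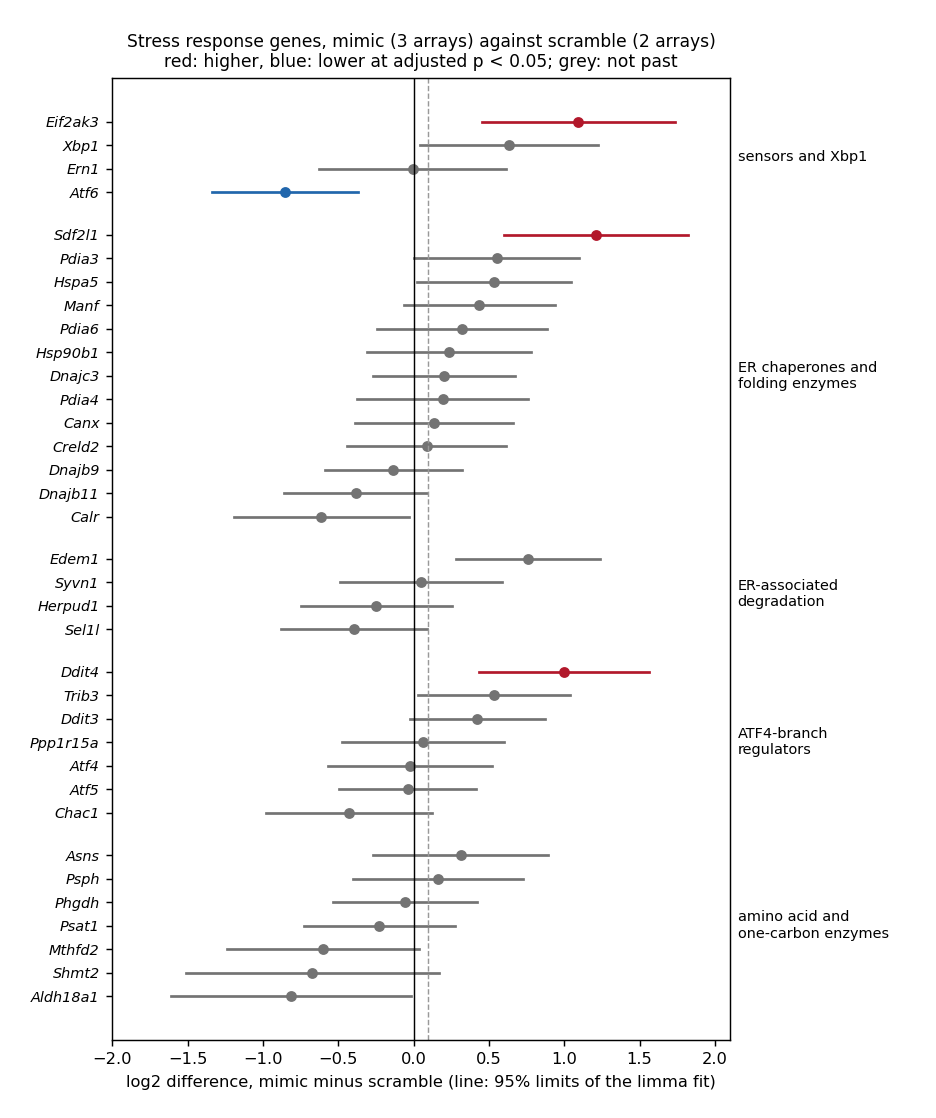
Fitted log2 difference, mimic minus scramble, of the 35 tested genes, grouped by role, with 95% confidence limits from the limma fit (3 mimic and 2 scramble arrays). Red points are higher and blue points lower at an adjusted p below 0.05, grey points did not pass, and the dashed line is the median of all genes, 0.09; Sdf2l1, Eif2ak3 and Ddit4 lie to the right of 0, Atf6 to the left, and most other intervals cross 0.

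The 3 mimic arrays all lay above both scramble arrays for 10 of the 35 genes, and all lay below them for 7. The arrays of the groups overlapped for the other 18. Over all genes tested, the groups did not overlap for 42.6%: 25.9% had every mimic array above and 16.7% every mimic array below. The ER genes and the Atf4-dependent genes were also counted apart. In the ER group 1 of 17 tested genes rose (5.88%, against 9.74% of all genes called), none fell, and the median difference was 0.19. In the Atf4 group 1 of 14 rose (7.14%), none fell, and the median was −0.03. Scaling each scan to the 75th percentile of the probes bright on all scans lowered every difference alike, with a median of −0.04 over all genes, 0.06 in the ER group and −0.17 in the Atf4 group. The groups of genes were not tested against each other.

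Among the sensors, the mimic arrays were higher for the messenger RNA of Eif2ak3 and lower for that of Atf6, and the proteins were not measured. Eif2ak3, the gene of PERK, had normalised log2 signals (log2 signal minus the 75th percentile of the scan) of 0.90, 1.42 and 1.14 on mimic arrays 1 to 3, and of 0.44 and −0.32 on scramble arrays 1 and 2. Every mimic array was above every scramble array, and the scramble arrays lay further apart than the mimic arrays did. The means were 1.15 ± 0.26 (SD, n = 3) and 0.06 ± 0.54 (SD, n = 2), a difference of 1.09 ± 0.28 (SE), or 2.13-fold higher with the mimic (limma, adjusted p = 0.0459). Its probe maps to chr6:70855152-70855211 in the files' build, mm9. Without scramble array 2 the difference was 0.71 and did not pass the test. In each fit that leaves out a scramble array, here and below, the other scramble array stands alone and is assumed to vary like the mimic arrays, which alone give the spread.

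Atf6, whose product is released from the membrane as a transcription factor, read 0.95, 0.98 and 0.99 on the mimic arrays and 1.61 and 2.04 on the scramble arrays. The mimic arrays were nearly the same and both scramble arrays stood above them. With means of 0.97 ± 0.02 (SD, n = 3) and 1.82 ± 0.31 (SD, n = 2), Atf6 fell by 0.85 ± 0.21 (SE) on the log2 scale, which is 1.80-fold lower with the mimic (limma, adjusted p = 0.0421). The Atf6 probe maps to chr1:172635311-172635370 (mm9). Without scramble array 2 the difference was −0.64 and the call was lost.

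Xbp1, the transcription factor downstream of IRE1, read 6.22, 6.60 and 6.28 with the mimic and 6.07 and 5.40 with the scramble. All mimic arrays were above both scramble arrays, but mimic array 1 and scramble array 1 were close together. The difference of 0.63 ± 0.26 (SE), with 95% limits of 0.04 and 1.22, did not pass the test after adjustment (limma, adjusted p = 0.172). It was 0.30 without scramble array 2 and 0.97, past the threshold, without scramble array 1. The files do not say whether the probe separates spliced from unspliced Xbp1, so splicing was not measured. Ern1, the gene of IRE1 itself, was dim: 3 of 6 mimic scans and 1 of 4 scramble scans were well above background. Its difference was −0.01 ± 0.27 (SE), with limits of −0.63 and 0.62.

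Of the ER chaperones and folding enzymes, only Sdf2l1 passed the test. Sdf2l1, an ER-resident protein that works with the chaperone BiP, had normalised log2 signals of 0.33, 0.80 and 0.33 on the mimic arrays and of −0.41 and −1.05 on the scramble arrays. The groups did not overlap. The means were 0.49 ± 0.27 (SD, n = 3) and −0.73 ± 0.45 (SD, n = 2), and the difference was 1.21 ± 0.27 (SE), or 2.32-fold higher with the mimic (limma, adjusted p = 0.0263). The gene was dim, with all 6 mimic scans but only 3 of 4 scramble scans well above background. The 2 scans of scramble array 2 read −1.54 and −0.55. With the scan date as a block and the array as a random block, Sdf2l1 did not pass the test (limma, adjusted p = 0.0764). The Sdf2l1 probe maps to chr16:17130426-17130485 (mm9). The difference was 0.89 without scramble array 2, where the call was lost.

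**Figure D2:**
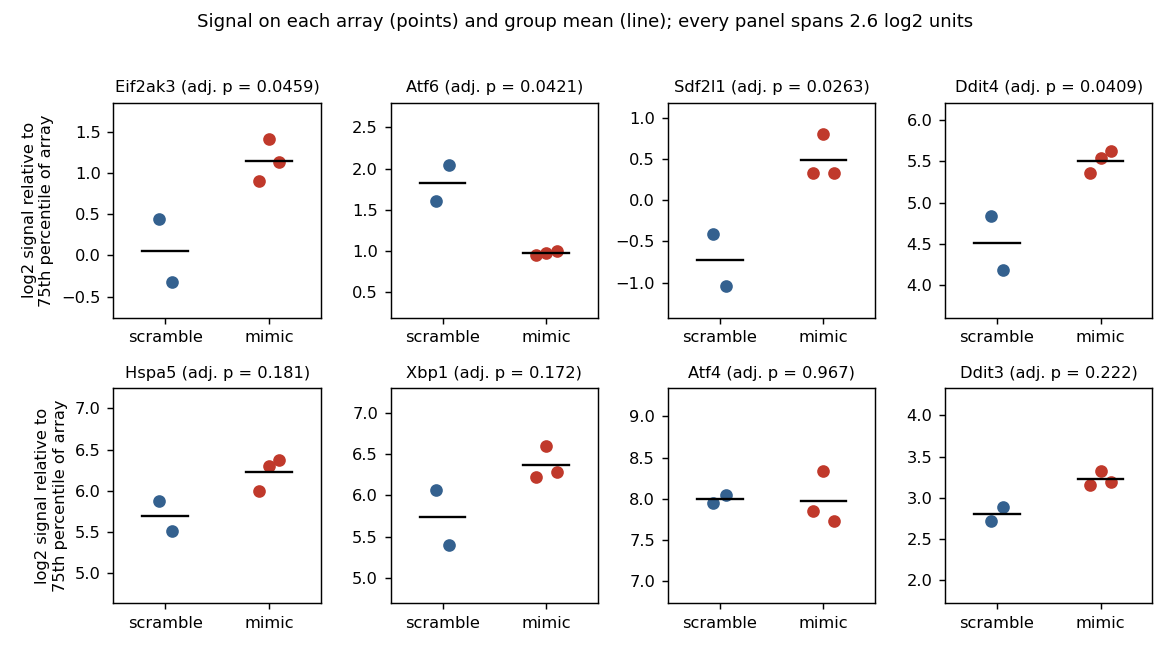
Normalised log2 signal on each of the 3 mimic and 2 scramble arrays for the 4 called genes and for Hspa5, Xbp1, Atf4 and Ddit3; points are arrays, lines mark group means, and each panel spans the same number of log2 units. Sdf2l1, Eif2ak3 and Ddit4 have all mimic arrays above both scramble arrays, Atf6 has them below, and the arrays of Atf4 overlap.

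Hspa5, the gene of BiP, which is the main Hsp70 chaperone of the ER and a usual readout of the unfolded protein response, read 6.00, 6.31 and 6.37 with the mimic and 5.87 and 5.51 with the scramble. The mimic arrays were all higher, mimic array 1 by little. The difference was 0.53 ± 0.22 (SE), with 95% limits of 0.02 and 1.05, and it did not pass the test (limma, adjusted p = 0.181). It was 0.35 without scramble array 2. Pdia3, a disulfide isomerase, differed by 0.55 ± 0.24 (SE) and Manf, a secreted ER stress protein, by 0.44 ± 0.22 (SE). In both genes the 3 mimic arrays lay above the 2 scramble arrays, and neither passed the test (limma, adjusted p = 0.197 for Pdia3 and 0.252 for Manf).

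Calreticulin (Calr), a lectin chaperone of glycoproteins, had its mimic arrays below its scramble arrays. It read 3.71, 3.64 and 3.38 with the mimic and 3.85 and 4.53 with the scramble, a difference of −0.61 ± 0.25 (SE) that did not pass the test (limma, adjusted p = 0.180). It was −0.27 without scramble array 2 and −0.95, past the threshold, without scramble array 1. Calnexin (Canx), its membrane-bound relative, differed by 0.14 ± 0.23 (SE). The co-chaperone gene Dnajb11 differed by −0.39 ± 0.21 (SE), again with every mimic array lower, while its fellow co-chaperones Dnajc3 and Dnajb9 differed by 0.20 ± 0.21 and −0.13 ± 0.20 (SE) with overlapping arrays. The remaining genes were the isomerases Pdia6 (0.32) and Pdia4 (0.19), the ER Hsp90 gene Hsp90b1 (0.23) and Creld2 (0.09), an ER-resident gene induced by ER stress. The arrays of each of these 4 genes overlapped.

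Hyou1 was well above background on 1 mimic scan and 2 scramble scans, below the 4 scans needed, and was not tested. Its values of −1.54, −1.37 and −1.22 with the mimic and −0.89 and 0.46 with the scramble therefore give no fold.

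The 4 genes of ER-associated degradation, which marks misfolded proteins and returns them to the cytosol for destruction, gave no call. Edem1, which directs misfolded glycoproteins to degradation, came closest. It read 3.32, 3.32 and 3.13 on the mimic arrays and 2.67 and 2.33 on the scramble arrays, so that the groups stood well apart. Its difference of 0.76 ± 0.21 (SE), with 95% limits of 0.28 and 1.23, missed the threshold (limma, adjusted p = 0.0570). It passed in 7 of 19 alternative settings, among them fits that count both scans of an array as samples. Sel1l and Syvn1, which form a ubiquitin ligase complex of the ER membrane, differed by −0.39 ± 0.21 and 0.05 ± 0.23 (SE). Herpud1, another component of that machinery, differed by −0.25 ± 0.22 (SE).

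The promoters of the genes were searched for an element already known from genes of the ER stress response. The ER stress response element (ERSE) is bound by ATF6 together with the factor NF-Y, and was searched as CCAAT, 9 bases of any kind and CCACG, on both strands of the 250 bases before the start of each gene (RefSeq, GRCm38.p6). Of the 36 genes, 33 have a promoter in the table, and Manf, Hyou1 and Atf6 have none there. The element was found in 8 of the 33, against 0.113% of 32851 promoters of the same length. All 8 belong to the ER group, in which 16 genes have a promoter in the table. The share was not tested. The elements are printed below in their own direction, with the fixed bases in capitals. They let the genes with and without the element be read apart. Those of Calr and Creld2 and the first of Hsp90b1 lie on the strand opposite to the gene.
Calr: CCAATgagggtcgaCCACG
Canx: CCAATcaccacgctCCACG
Creld2: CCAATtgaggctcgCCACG
Dnajc3: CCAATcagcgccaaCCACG
Hsp90b1, first: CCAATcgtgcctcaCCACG
Hsp90b1, second: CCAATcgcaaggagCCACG
Hspa5: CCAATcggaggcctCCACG
Pdia6: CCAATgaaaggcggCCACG
Syvn1: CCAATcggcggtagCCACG

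None of the 8 genes with the element passed the test. Their differences ran from −0.61 (Calr) to 0.53 (Hspa5), with a median of 0.17, and 7 of the 8 were above 0. Over all genes tested, 8003 of 13677 were above 0, with a median of 0.09. The signs depend on the scaling. With the 75th percentile of the probes bright on all scans, Creld2 and Syvn1 fell to −0.05 and −0.08, and no other of these genes changed sign. The 8 other ER genes with a promoter in the table ran from −0.39 (Sel1l) to 1.21 (Sdf2l1), with a median of 0.03. The only call of the ER group, Sdf2l1, therefore lay outside the genes that hold the element in this window. The promoters of Hspa5 and Sdf2l1 are printed as the pair that shows this, with the element of Hspa5 in capitals, at chr2:34771840-34772089 on the plus strand and chr16:17132384-17132633 on the minus strand (GRCm38.p6). An absent match says only that these letters are not in the window.
Hspa5: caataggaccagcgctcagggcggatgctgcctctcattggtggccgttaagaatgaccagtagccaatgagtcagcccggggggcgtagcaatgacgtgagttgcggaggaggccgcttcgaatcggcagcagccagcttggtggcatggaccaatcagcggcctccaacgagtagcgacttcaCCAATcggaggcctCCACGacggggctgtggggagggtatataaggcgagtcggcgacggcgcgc
Sdf2l1: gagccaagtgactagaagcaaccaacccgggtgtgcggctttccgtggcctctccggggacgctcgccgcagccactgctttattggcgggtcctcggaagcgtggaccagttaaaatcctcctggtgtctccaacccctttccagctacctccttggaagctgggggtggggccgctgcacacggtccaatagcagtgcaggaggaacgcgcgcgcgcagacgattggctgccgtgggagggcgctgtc

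Other elements were searched in the same windows and on both strands. The element ERSE-II, as ATTGG, 1 base of any kind and CCACG, was found in Herpud1 alone, as ATTGGGCCACG, against 0.0304% of all promoters. The element bound by ATF4 with C/EBP factors, as TGATGNAA, was found in Asns, Chac1 and Herpud1, against 3.45% of all promoters, and none of these genes passed the test. The element bound by XBP1, as TGACGTGG, was found in none of the 33, against 0.563% of all promoters. Its reverse strand shares the letters CCACG with the ERSE. Among the called genes with a promoter in the table, Sdf2l1, Eif2ak3 and Ddit4 held none of the 4 elements.

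The regulators of the Atf4 branch gave 1 call among 7 genes (14.3%, against 9.74% of all genes), that of Ddit4. Ddit4, an inhibitor of the growth kinase complex mTORC1 that responds to several stresses, had normalised log2 signals of 5.37, 5.54 and 5.63 on the mimic arrays and of 4.84 and 4.18 on the scramble arrays. All mimic arrays stood above both scramble arrays. The means were 5.51 ± 0.13 (SD, n = 3) and 4.51 ± 0.46 (SD, n = 2), and the difference was 0.998 ± 0.25 (SE), or 2.00-fold higher with the mimic (limma, adjusted p = 0.0409). The Ddit4 probe maps to chr10:59412486-59412545 (mm9). Without scramble array 2 the difference was 0.67 and the call was lost.

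Atf4 itself read 7.86, 8.34 and 7.74 with the mimic and 7.96 and 8.05 with the scramble, so that the arrays overlapped. The difference was −0.02 ± 0.24 (SE), with 95% limits of −0.57 and 0.52 (limma, adjusted p = 0.967). Atf4 is controlled largely by translation, which an array of messenger RNA does not measure. Ddit3, the gene of the transcription factor CHOP, read 3.16, 3.33 and 3.19 with the mimic and 2.72 and 2.89 with the scramble. Every mimic array was higher, yet the difference of 0.42 ± 0.20 (SE) did not pass the test (limma, adjusted p = 0.222).

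Trib3, a pseudokinase induced downstream of ATF4 and CHOP, differed by 0.53 ± 0.22 (SE) with every mimic array higher (limma, adjusted p = 0.177). Chac1, a glutathione-degrading enzyme of the same branch, went the other way by −0.43 ± 0.24 (SE), although mimic array 2 and scramble array 2 were nearly equal at 6.39 and 6.40 (limma, adjusted p = 0.305). Chac1 differed by −0.13 without scramble array 1 and by −0.74 without scramble array 2. Neither difference passed the test. Ppp1r15a, a phosphatase subunit that reverses eIF2α phosphorylation, and the transcription factor Atf5 differed by 0.06 ± 0.23 and −0.04 ± 0.20 (SE), both with overlapping arrays.

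None of the 7 enzyme genes passed the test, and 5 of the 7 differences were below 0, with a median of −0.23. Aldh18a1, which starts proline synthesis, had the lowest p. It read 1.15, 1.34 and 1.42 on the mimic arrays and 1.48 and 2.75 on the scramble arrays. Its difference of −0.81 ± 0.35 (SE) came mostly from scramble array 2, without which it was −0.18 (limma, adjusted p = 0.188 with all arrays). Without scramble array 1 it was −1.45 and passed the threshold. Shmt2 and Mthfd2, enzymes of mitochondrial one-carbon metabolism, differed by −0.67 ± 0.37 and −0.60 ± 0.28 (SE). Shmt2 read 3.40 and 4.69 on the scramble arrays, and its difference was −0.03 without scramble array 2 and −1.32 without scramble array 1. That of Mthfd2 was −0.38 without scramble array 2. The serine synthesis genes Phgdh, Psat1 and Psph differed by −0.06, −0.23 and 0.16, and Asns, which makes asparagine, by 0.31 (0.06 without scramble array 2). The arrays of the last 4 genes overlapped.

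**Figure D3:**
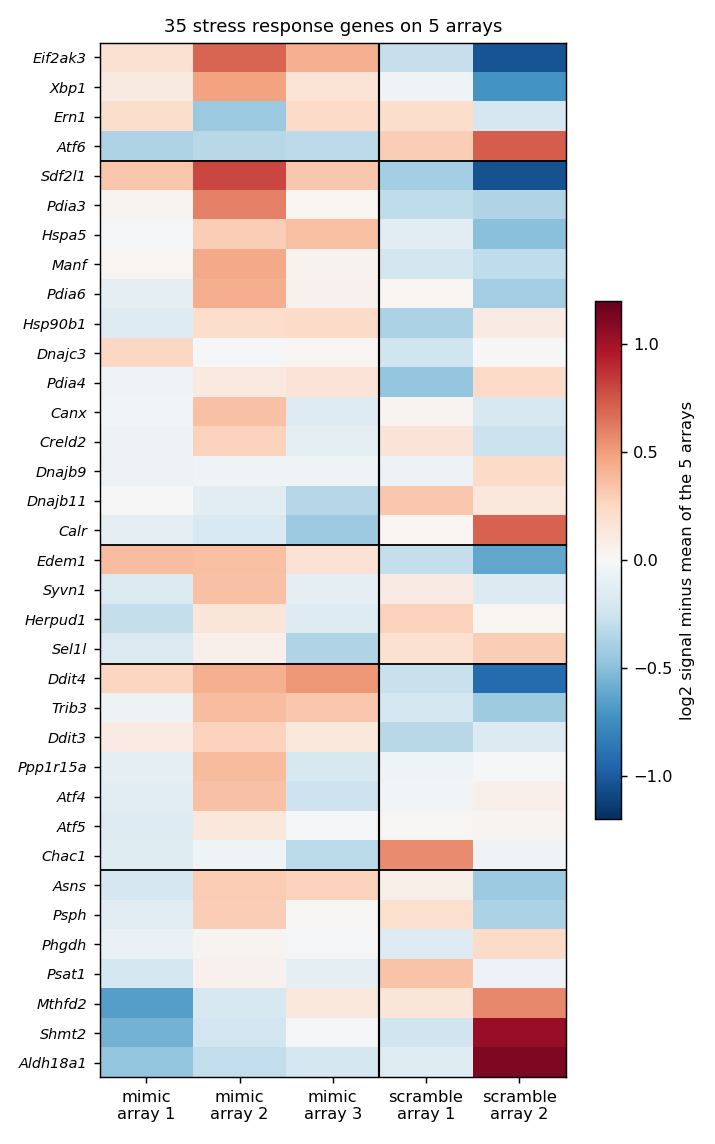
Signal of each array minus the gene's mean over the 5 arrays, in log2 units (colour), for the 35 tested genes grouped by role; columns are the 3 mimic and 2 scramble arrays. Scramble array 2 stands apart from scramble array 1 in several genes, among them Shmt2 and Aldh18a1, while Sdf2l1, Eif2ak3, Ddit4 and Atf6 part the groups.

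The scramble arrays differed about as much in these genes as in all genes. Scramble array 2 was above scramble array 1 for 15 of the 35 genes (42.9%), against 40.7% of all genes tested, and the median size of the gap between them was 0.41 on the log2 scale, against 0.38. Mimic array 2, whose scans had the smallest shares of spots well above background in its group, was the highest mimic array for 22 of the 35 genes (62.9%), against 57.3% of all genes tested. Leaving out 1 array moved the difference of Sdf2l1 between 0.89 and 1.53, that of Eif2ak3 between 0.71 and 1.47, that of Ddit4 between 0.67 and 1.33 and that of Atf6 between −1.07 and −0.64. All 4 calls were lost when any 1 mimic array or scramble array 2 was left out, and passed without scramble array 1, where 3671 of 13665 genes were called, against 1332 of 13677 with all arrays.

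**Figure D4:**
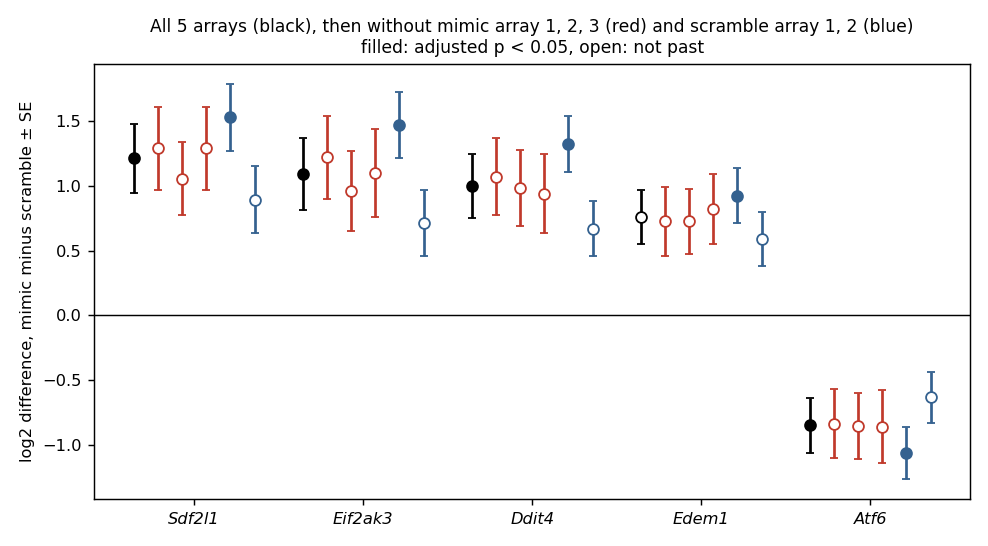
Fitted log2 difference, mimic minus scramble, with its SE, for the 4 called genes and Edem1, with all 5 arrays (black) and with each mimic (red) or scramble (blue) array left out in turn; filled points passed the test. The differences of Sdf2l1, Eif2ak3, Ddit4 and Atf6 are smallest in size without scramble array 2, at 0.89, 0.71, 0.67 and −0.64.

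The slide position and the scan day were used to split the same values. The first slide row held 2 mimic arrays and 1 scramble array, and the second row 1 of each. The difference of Sdf2l1 was 0.74 in the first row and 1.85 in the second, that of Eif2ak3 0.58 and 1.74, and that of Ddit4 0.66 and 1.35. Atf6 differed by −0.64 and −1.06. For each of the 4 genes the size was larger in the second row, which holds mimic array 2 and scramble array 2. By scan day, which repeats the same arrays, the earlier scans gave 1.58 and the later scans 0.84 for Sdf2l1, 1.19 and 0.996 for Eif2ak3, and 1.11 and 0.88 for Ddit4. Atf6 differed by −0.79 in the earlier and −0.92 in the later scans. None of the 4 genes passed the test in the later scans alone or with the slide row as a block, and Atf6 did not pass in the earlier scans.

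The array holds 47 probes for the 36 genes, and 5 genes had more than 1 probe bright enough to keep. The second probe of Pdia6 gave −0.45 ± 0.20 (SE) where the first gave 0.32, and that of Psph gave −0.40 where the first gave 0.16. The probes of these genes disagree in sign, and none passed the test. For Psat1 the second probe gave −0.84 ± 0.28 (SE), below the −0.23 of the first (limma, adjusted p = 0.105 over all kept probes). Atf4 gave −0.28 on its second probe, and Phgdh −0.14 and −0.15 on its others. The 4 called genes have 1 probe each on the array, so no second probe bears on their calls.

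**Figure D5:**
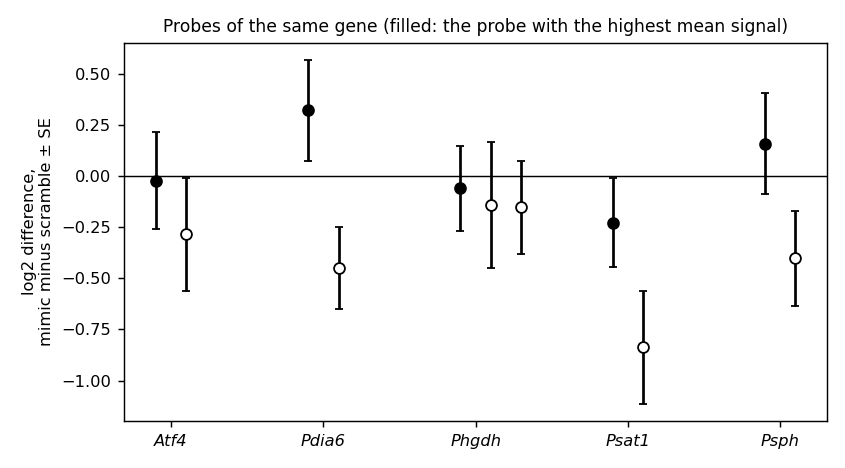
Fitted log2 difference, mimic minus scramble, with its SE, for every kept probe of the 5 genes that have more than 1; the filled point is the probe that stands for the gene. The probes of Pdia6 and Psph fall on both sides of 0, and those of Psat1 and Phgdh lie below it.

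Other genes of the same pathways were taken from lists made on known function. Of 35 tested genes of ER folding, translocation and degradation that are not among the 36, 3 rose and 1 fell, a share of 11.4% against 9.74% of all genes, with a median difference of 0.19. Wfs1, an ER membrane protein known to restrain ER stress signalling, read 2.67, 2.86 and 2.69 with the mimic and 4.61 and 4.32 with the scramble. It was 3.30-fold lower with the mimic, a difference of −1.72 ± 0.20 (SE), and was called in all 19 alternative settings (limma, adjusted p = 0.00121). Ero1a, the oxidase that recharges disulfide isomerases, was 2.77-fold higher, with a difference of 1.47 ± 0.24 (SE), and passed the test in 18 of 19 settings (limma, adjusted p = 0.00789). Sec24d, a coat protein of vesicles that leave the ER, was 1.78-fold higher but passed in only 7 of 19 settings (limma, adjusted p = 0.0467). The third rise, that of the related oxidase gene Ero1b, rests on a probe that met the filter through 5 of 6 mimic scans and 1 of 4 scramble scans, so its fold is not given, and it passed in 7 of 18 settings.

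Of 30 other tested genes of the integrated stress response, none rose and 3 fell, 10% of them against 9.74% of all genes, with a median of −0.11. Fgf21, a hormone gene that ATF4 can induce, read 0.06, −0.37 and 0.31 with the mimic and 4.85 and 4.63 with the scramble, which is 26.7-fold lower, with 5 of 6 mimic scans well above background (limma, adjusted p = 2.69e-05). Slc7a5, an importer of large neutral amino acids, was 2.04-fold lower and Gpt2, an alanine aminotransferase of mitochondria, 1.93-fold lower (limma, adjusted p = 0.0366 and 0.0340). Fgf21 passed in all 18 settings in which it could be fitted, Slc7a5 and Gpt2 each in 11 of 19. The calls of Slc7a5 and Gpt2 were lost when any 1 mimic array was left out. That of Slc7a5 was also lost with the mean of its probes (limma, adjusted p = 0.0628). The transcription factor genes Atf3 and Cebpb differed by 0.04 ± 0.21 and 0.41 ± 0.22 (SE), and the eIF2α kinase gene Eif2ak2 by 0.40 ± 0.20 (SE). None of these 3 passed the test (limma, adjusted p = 0.928, 0.301 and 0.249), and the probe of the cystine importer Slc7a11 was too dim to test.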

How the data were processed

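The deposited scanner files give linear Cy3 intensities per spot. Agilent Feature Extraction made them in version 12.0.0.7 with the mm9 build, per the file headers, and in version 10.7.3.1, per the submitters' processing notes. 150 ng of RNA was labelled per sample, per the labels' protocols. The deposited series matrix, linear intensities of 18807 to 24051 probes per sample with medians of 177.5 to 356.3, served as an alternative. Its scaling between arrays is unknown.

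Each scan's processed signal was put on the log2 scale and its 75th percentile, taken across non-control probes, was subtracted, with outlier-flagged spots left out. A probe was kept when well above background on at least 4 of 10 scans (on at least 0.5 of its spots), and the brightest probe stood for its gene. Names were updated through RefSeq tables (GRCm38.p6). Neither exon nor UTR was assigned to a probe, since no mm9 annotation was used. Scans of 1 array position were averaged, and the mimic was compared with the scramble in limma 3.58.1 (lmFit, eBayes; R 4.3.3), with Benjamini-Hochberg adjustment over 13677 genes and 95% confidence limits. The script was tested on simulated data. Alternatives changed the scaling, background, filter, probes, scans and arrays.

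The members and lists were chosen with earlier results of these data known. Values on every array are given for called members, Hspa5, Xbp1, Atf4, Ddit3 and the member with the lowest p of each role. Calr and some other values were added after they were seen. Of each further list up to 4 called genes, in order of p, are named, besides Eif2ak2, Atf3, Cebpb, Slc7a11 and Hspa1a. Replicate numbers were not taken as pairs.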

Additional observations from a re-analysis of the deposited data

How the results depend on the processing

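Of the 4 called stress genes, Sdf2l1 was called in 10 of the 18 settings in which it could be fitted, Ddit4 and Atf6 in 10 of 19 and Eif2ak3 in 9 of 19. The settings counted here and above include all scans as samples, with or without the replicate number as a block. These fits treat the scans of 1 array as independent, and all 4 genes passed in them. The settings also include fits that keep only 1 scramble array. Of the 31 other tested genes, 19 passed in no setting, and 13 changed sign in at least 1 setting, without passing there. The causes were not tested.

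The number of calls among all genes also changed with the setting. Against 1332 in the main fit, 1338 were called with the percentile over bright probes and 1390 with quantile normalisation. The number was 1124 with normexp background correction, 1284 with the first scan day and 1786 with the scan date and a random array block. The count of called stress genes went from 4 to 1 with scaling to the median, 0 without a filter (where 34608 genes are tested) and 2 with the series matrix values. It was 15 with all scans as samples, 0 with the second scan day alone and 0 with the slide row as a block. Leaving out 1 array gave 0 to 9, the latter without scramble array 1. Over all genes the count went from 1332 to 761 with median scaling, 407 without a filter, 1079 with the series matrix, 4154 with all scans as samples, 940 with the second day and 810 with the slide row block, and to 3671 of 13665 genes without scramble array 1. For the ER group the count went from 1 to 2 with normexp background correction or the first scan day, 7 with all scans as samples, and 0 without a filter, with the second scan day or with the slide row block (0 to 3 with 1 array left out). For the Atf4 group it went from 1 to 5 with all scans as samples and to 0 with median scaling, no filter, the series matrix, the second day or the slide row block (0 to 3). For the sensors it went from 2 to 1 with quantile normalisation, the series matrix or the first day, and to 0 with median scaling, no filter, the second day or the slide row block (0 to 3).

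For the other ER genes the count went from 4 to 13 with all scans as samples, 1 without a filter, and 2 with the percentile over bright probes, median scaling, normexp, the series matrix, the second day or the slide row block (2 to 10 with 1 array left out). For the other integrated stress response genes it went from 3 to 14 with all scans as samples, 6 with the scan date and a random array block, and 1 with median scaling, no filter or the slide row block (1 to 9). For the tRNA synthetases it went from 0 to 2 with all scans as samples (0 to 2), and for the heat shock genes from 2 to 0 with median scaling, no filter or the slide row block and 1 with the second day (0 to 3).

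Same-numbered scans of the groups had correlations of their deviations of 0.19, −0.05, −0.27 and 0.14 for numbers 1 to 4. Numbers 1 and 2 stand for the same slide row and scan day in both groups. Number 3 shares the slide row only, and number 4 the scan day only. The correlations do not settle whether the numbers pair the scans, and the main fit did not use them as pairs. With the replicate number as a block, a fit that also counts all 10 scans of the 5 arrays as samples and calls 2336 of all genes, 5 stress genes were called, with 2 in the ER group, 1 in the Atf4 group, 2 sensors, 5 other ER genes, 6 other integrated stress response genes, 0 tRNA synthetases and 2 heat shock genes.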

Other observations

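Heat shock genes of the cytosol and mitochondria gave 2 calls among 14 tested (14.3%, against 9.74% of all genes), 1 in each direction. Dnajb4, a co-chaperone of cytosolic Hsp70, was 2.14-fold higher with the mimic and Hsph1, an Hsp110 nucleotide exchange factor, was 1.93-fold lower (limma, adjusted p = 0.0195 and 0.0208), with a median difference of 0.11 over the list. Dnajb4 read 1.02, 1.07 and 0.86 on the mimic arrays and 0.13 and −0.37 on the scramble arrays. Hsph1 read 2.57, 2.65 and 2.40 with the mimic and 3.44 and 3.54 with the scramble. In neither gene did the groups overlap, and both calls were lost when any 1 mimic array or scramble array 2 was left out. Hspa1a, the heat-inducible Hsp70, differed by 0.26 (limma, adjusted p = 0.786). None of the 17 aminoacyl-tRNA synthetase genes, many of them targets of ATF4, passed limma's test. Their median difference was −0.03, and 2 of the 17 had an unadjusted p below 0.05, against 25.3% of all genes.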
